A study of Mus musculus with 6 samples.

Results

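The nuclear-encoded genes of the mitochondrial respiratory chain were compared between PRMT5-deficient and control Th17 cultures. Members were the protein-coding rows named Nduf, Sdh, Uqcr, Cox4 to Cox8, Cycs or Atp5, which gave 99 of the 54525 genes in the table (22040 of them protein-coding). They were assigned by name to complex I (38 genes), complex II (4), complex III (8), complex IV (18), cytochrome c (1) and complex V (18), with 12 assembly factors (Ndufaf1 to Ndufaf8 and Sdhaf1 to Sdhaf4) kept as a group of their own. The KO group held 3 cultures of the genotype iCD4-PRMT5delta/delta and the WT group 3 cultures of the genotype iCD4-PRMT5fl/fl, all on the C57BL/6 background. In both groups naive CD4 T cells from spleen and lymph nodes had been stimulated for 72 hours with anti-CD3/CD28 in the presence of TGFβ and IL-6, a cytokine pair that drives Th17 differentiation. The iCD4 prefix is not explained in the labels. The design text calls the 3 samples of each genotype biological replicates.

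The respiratory chain passes electrons from NADH (complex I) and succinate (complex II) through ubiquinone to complex III, on through the small carrier cytochrome c to complex IV, and finally to oxygen. Complexes I, III and IV pump protons as they do so, and complex V, the ATP synthase, uses the returning protons to make ATP. Most subunits are encoded in the nucleus and imported, a few core subunits are encoded in mitochondrial DNA, and activated T cells are known to expand this machinery as they start to divide. PRMT5 itself is the enzyme that places most symmetric dimethylarginine marks on proteins, histones and splicing factors among them.

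Libraries held 36489789 to 41467126 counts in KO and 36011906 to 43141474 in WT. Prmt5 stood at 52.4, 43.8 and 52.9 CPM (counts-per-million values after TMM scaling) in KO replicates 1, 2 and 3, against 109, 137 and 118 CPM in the WT replicates, a log2 change of -1.29 ± 0.11 (SE). Y-linked genes (4 summed) gave 566, 74.4 and 585 CPM in KO and 0 in every WT library, while Xist gave 0.02, 479 and 0 CPM in KO and 389 to 416 CPM in WT, so the sex of the donors was not balanced and cannot be told apart from genotype for KO replicates 1 and 3. The column header of each KO library joins a number of its own to the number 51, which all 3 share, and its meaning is not stated. T cell markers summed to 1075 to 1101 CPM in KO and 1172 to 1303 CPM in WT. Of these 5 markers, Cd28 was lower in KO (log2 change -0.49) and Cd3e higher (0.39), while Cd3g, Cd4 and Trac were not called. All 5 tested markers of CD8, NK and gamma delta T cells were higher in KO (summed 54.2 to 105 CPM in KO, against 25.7 to 30.6 CPM in WT), as were all 3 B cell markers (25.5 to 71.3 CPM in KO, against 1.97 to 13.3 CPM in WT) and all 4 tested myeloid markers (7.26 to 26.9 CPM in KO, against 0.27 to 0.93 CPM in WT). Erythroid markers stayed at 0.29 to 0.48 CPM in KO and 0.20 to 0.52 CPM in WT, no list being at 0 throughout. Of 5 Th17 markers, Il17f, Il23r and Il17a were lower in KO and Ccr6 was higher. The part of cell composition in the results below was not tested, and in bulk cultures fewer cells of a type and less RNA per cell cannot be told apart.

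Among the 92 members that passed the filter on low counts, 44 were called at an edgeR adjusted p under 0.05 (47.8%), close to the 42.5% of all 16006 genes tested and the 47.4% of protein-coding genes. The direction was uneven. Higher calls numbered 10 (10.9%, against 21.7% of all genes and 23.3% of protein-coding genes) and lower calls numbered 34 (37.0%, against 20.9% and 24.1%). Leaving out KO replicate 1 gave 6 higher and 20 lower, leaving out KO replicate 3 gave 5 and 22, and leaving out WT replicate 3 gave 5 and 18. The Y-linked covariate gave 3 higher and 18 lower, and KO replicate 2 alone against WT 2 and 12, with fewer calls over all genes in each of these fits (16.3% to 34.1%). The median log2 change of the members was -0.11, beside -0.00 over all genes tested, and 69 of the 92 lay below 0. The KO libraries did not overlap the WT libraries for 57 members (62.0%, against 55.6% of all genes), with KO below WT in 45 and above in 12. With spike-in scaling, which moved the median of all genes to 0.14, the split became 4 higher and 4 lower (4.35% each, against 19.3% and 8.52% of all genes). The members' median was 0.02 there, 0.11 below that of all genes. Scaling can hardly alter this gap, because it shifts all genes by nearly the same amount.

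The changes were small. Apart from the low-level isoforms Cox6b2 and Cox7a1, no structural subunit that was called changed by a log2 change of 1 or more, and the 31 other lower structural subunits ranged from -0.86 to -0.16 with a median of -0.30. The members also varied little between cultures of a genotype. Their median coefficient of variation was 3.65% in KO and 4.71% in WT, against 8.84% in KO and 11.5% in WT over all genes tested. Those genes reach down to the filter on low counts, and genes matched to the members in level were not compared. Calls that remained under all 17 alternative settings numbered 5, namely Ndufv3, Ndufb11 and Cox7a1 (lower) and Cox6b2 and Ndufaf4 (higher).

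**Figure D1:**
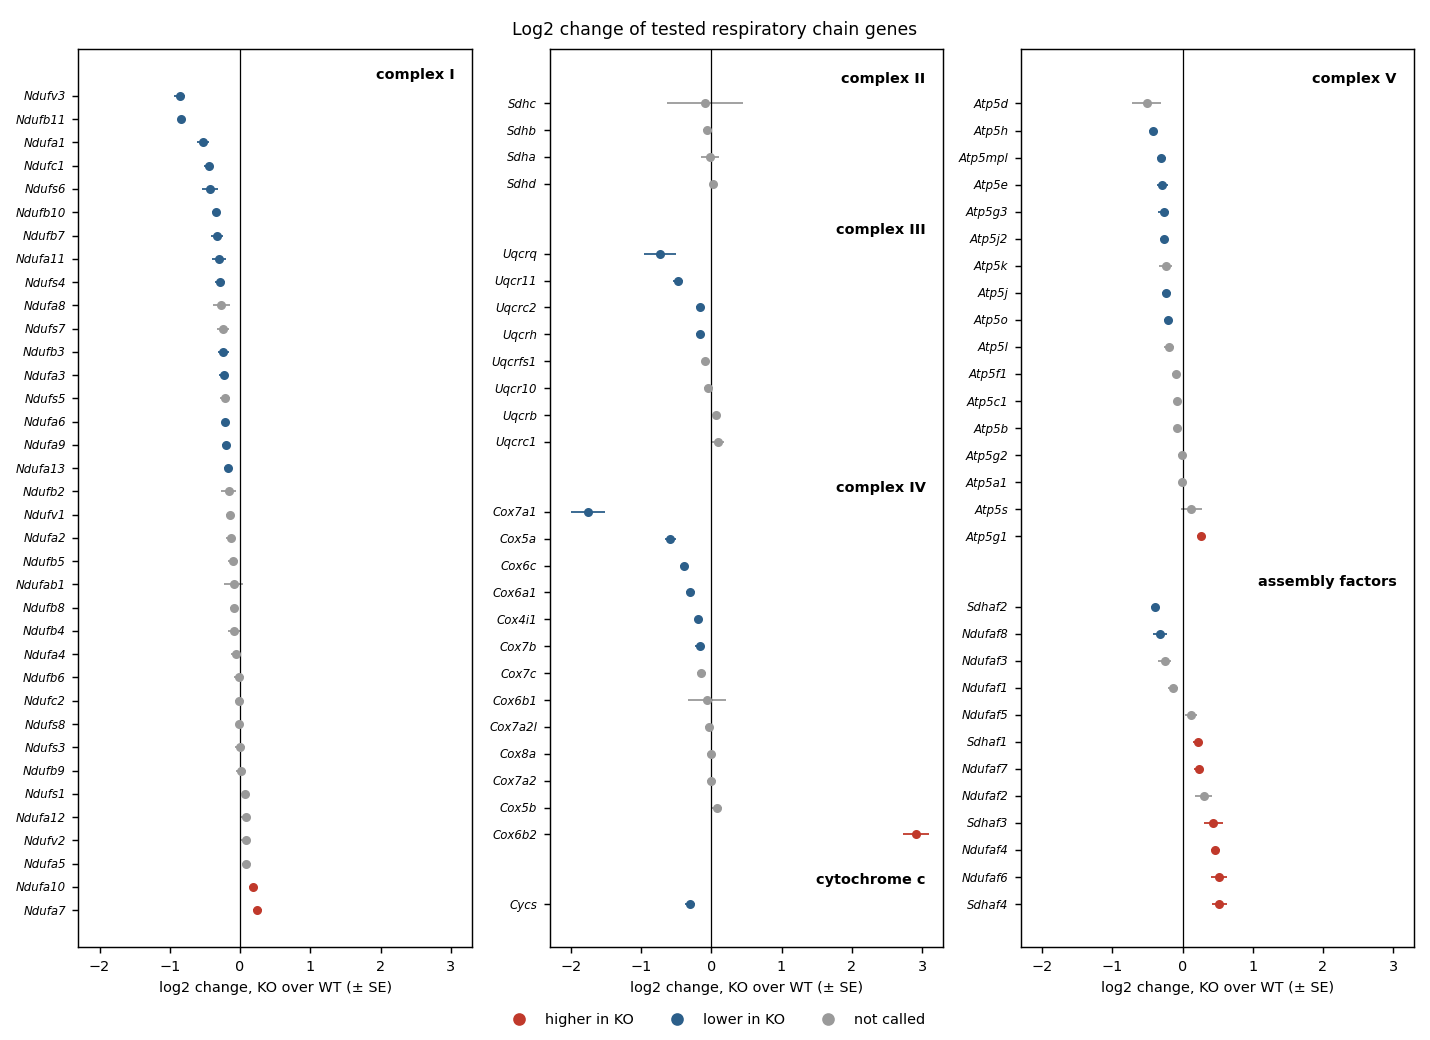
Log2 change of KO over WT (x axis, TMM scaling, bars ± SE, 3 libraries per genotype) for 91 of the 92 tested genes, by complex, with colours for the edgeR call. Most structural subunits lie slightly left of 0 (median -0.14), which spike-in scaling shifts right by about 0.14. Of the 12 assembly factors of the naming rule, 8 lie to the right.

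The complexes were set side by side by counts and medians, and differences between them were not tested. Structural subunits together gave 4 higher and 32 lower calls of 80 tested, with a median log2 change of -0.14. Complex V had the lowest median among complexes I to V (-0.21, 1 higher and 7 lower of 17 tested), followed by complex I (-0.15, 2 higher and 14 lower of 37), complex IV (-0.14, 1 higher and 6 lower of 13) and complex III (-0.13, 0 higher and 4 lower of 8, with 0 higher also at an unadjusted p under 0.05, by DESeq2 and by limma-voom). Complex II, the only complex with no mitochondrially encoded subunit, had 0 of 4 called by edgeR, with 0 also at an unadjusted p under 0.05 and by DESeq2 and limma-voom, and a median of -0.04. The 12 assembly factors of the naming rule went the other way, with 6 higher and 2 lower and a median of 0.22. The 37 tested assembly factors outside the rule did not, with 5 higher and 8 lower and a median of -0.08. In the fits without a library, lower calls numbered 6 to 16 in complex I (6 without KO replicate 1, 9 without KO replicate 3 and 7 without WT replicate 3), 1 to 4 in complex III (1 without KO replicate 3 or WT replicate 3, and 2 without KO replicate 1, KO replicate 2 or WT replicate 1), 4 to 6 in complex IV and 4 to 8 in complex V (4 without WT replicate 3). Higher assembly factors numbered 3 to 6 (3 without KO replicate 1, KO replicate 3 or WT replicate 3) and lower ones 1 to 2 (1 without KO replicate 3 or any 1 of the WT libraries). With spike-in scaling, complex V had 0 higher and 0 lower by edgeR (0 and 0 also at an unadjusted p under 0.05), complex I 0 and 2, complex III 0 and 1, complex IV 1 and 1, and the assembly factors 3 and 0. Over all genes, 19.3% were higher and 8.52% lower with that scaling. Medians under spike-in scaling were -0.07 (complex V), -0.01 (I), 0.00 (IV), 0.01 (III), 0.10 (II) and 0.36 (assembly factors). The direction of complexes II, III and IV turned there. The order of the medians (V, I, IV, III, II, assembly factors, from lowest to highest) was the same. That order could hardly change, because scaling shifts all genes by nearly the same amount, so it is no test of the ranking. Spike-in RNAs made up only 0.161% to 0.201% of counts in KO and 0.163% to 0.216% in WT, ranges that overlap.

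In single libraries, the complex I median against the WT mean was -0.14, -0.14 and -0.16 in KO replicates 1, 2 and 3, against -0.07, 0.06 and -0.00 in the WT replicates. For complex V it was -0.18, -0.19 and -0.19 in KO, against -0.06, 0.04 and 0.01 in WT. The KO libraries lay below every WT library for complexes I, III, IV and V and above every WT library for the assembly factors, and they overlapped for complex II (-0.02, 0.01 and -0.04 in KO, against -0.03, 0.07 and -0.01 in WT). KO replicate 2, the KO library with Xist and little Y-linked RNA, lay on the same side of the WT libraries as the other KO libraries in complexes I, III, IV and V and in the assembly factors. WT replicate 1 was the lowest WT library in each of complexes I to V, in cytochrome c and in the assembly factors.

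**Figure D2:**
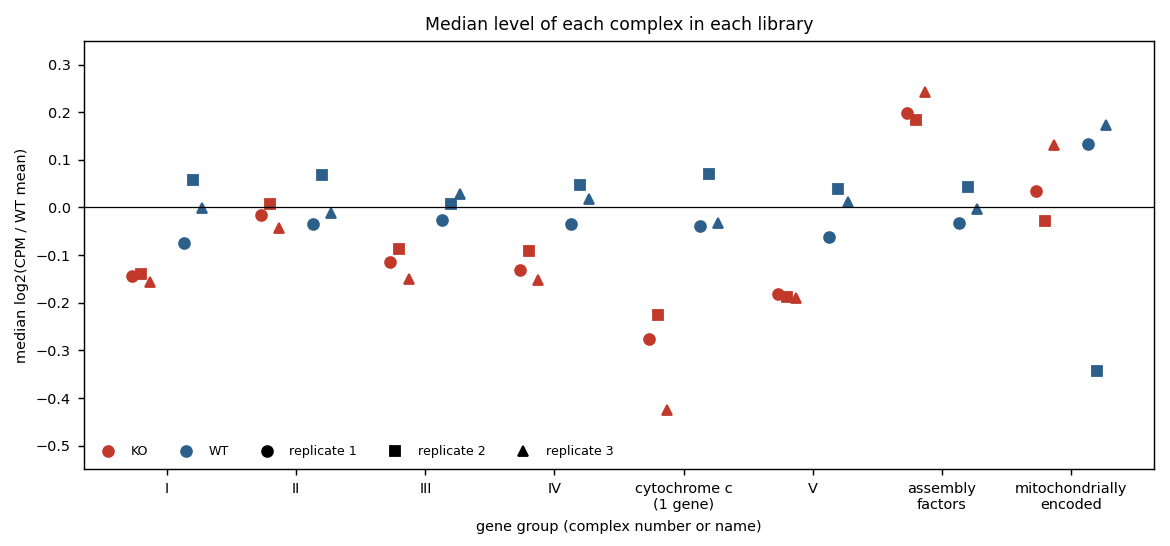
Median of log2(CPM over the WT mean) for each gene group (x axis) in each library, KO in red left of WT in blue, symbols marking the replicate, TMM scaling. KO points lie below WT for complexes I, III, IV, cytochrome c and V. They lie above WT for the assembly factors of the naming rule, while complex II and the mitochondrially encoded mRNAs overlap. Spike-in scaling brings complexes III and IV to 0.01 and 0.00.

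Complex I oxidizes NADH in its N module, reduces ubiquinone in its Q module and pumps protons through its membrane arm. The strongest falls were in accessory subunits. Ndufb11 (chromosome X, 20615326 to 20617619, minus strand, GRCm38), a membrane arm subunit, stood at 67.3, 65.6 and 64.5 CPM in KO, against 116, 115 and 121 CPM in WT. KO averaged 56.1% of WT, with a log2 change of -0.83 ± 0.05 and an adjusted p of 4.06e-05. Ndufv3 (chromosome 17, 31520115 to 31531331, plus strand), a small accessory subunit of the NADH-oxidizing flavoprotein part, stood at 116, 129 and 119 CPM in KO and at 199.9, 236 and 225 CPM in WT. Its log2 change was -0.86 ± 0.08 with an adjusted p of 0.000153. For both genes every KO library lay far below every WT library.

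Smaller falls were seen in further membrane arm subunits. Ndufc1 stood at 23.2, 22.0 and 23.3 CPM in KO, against 31.8, 31.3 and 30.3 CPM in WT (log2 change -0.45 ± 0.07, adjusted p 0.00174). Ndufb10 stood at 56.5, 57.6 and 58.7 CPM in KO, against 73.0, 72.4 and 74.1 CPM in WT (log2 change -0.35 ± 0.05, adjusted p 0.00171). Ndufa1, needed for assembly of the membrane arm, stood at 45.7, 43.1 and 42.8 CPM in KO, against 60.1, 70.4 and 59.4 CPM in WT (log2 change -0.53 ± 0.08, adjusted p 0.00182). The groups did not overlap for any of these. Of the 21 tested genes grouped as membrane arm, 10 were lower and 1, Ndufa10, was higher, with a median of -0.20. That group took every complex I gene not assigned to another module, Ndufa9 included, so it may hold subunits outside the arm.

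Ndufb11, Ndufa1 and the complex IV subunit Cox7b are the 3 tested members on chromosome X, and all 3 were called lower, where 25.4% of tested X-linked genes were lower and 17.4% higher. In the fit of KO replicate 2 alone against WT, Ndufb11 kept a log2 change of -0.84 (adjusted p 0.0102), Ndufa1 had -0.55 (adjusted p 0.053) and Cox7b had -0.09 (adjusted p 0.465).

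Core subunits of complex I described here did not pass the test. Ndufv1, which binds NADH and the flavin, stood at 104, 105 and 103 CPM in KO, against 109, 121 and 115 CPM in WT (log2 change -0.15 ± 0.06, adjusted p 0.0683). The iron-sulfur subunit Ndufv2 stood at 155, 159 and 168 CPM in KO, against 142, 161 and 154 CPM in WT. The large iron-sulfur subunit Ndufs1 stood at 175, 186 and 177 CPM in KO, against 164, 176 and 169.9 CPM in WT. Of these 3 N module subunits, Ndufv1 was slightly lower without overlap and the others overlapped, and none passed the test.

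In the Q module, Ndufs7, which carries the last iron-sulfur cluster, stood at 38.6, 36.2 and 38.7 CPM in KO, against 40.9, 49.8 and 43.8 CPM in WT (-0.24 ± 0.09, adjusted p 0.0556). KO lay below WT without overlap, just outside the threshold. Ndufs3 (99.8, 99.7 and 93.8 CPM in KO, against 91.4, 105 and 96.8 CPM in WT) and Ndufs8 (80.2, 81.7 and 82.9 CPM in KO, against 80.0, 82.8 and 83.7 CPM in WT) overlapped. The N module gave 1 higher and 4 lower of 10 with a median of -0.14.

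The N module's higher member was Ndufa7, at 44.2, 44.3 and 47.8 CPM in KO, against 38.6, 38.7 and 37.5 CPM in WT (log2 change 0.25 ± 0.06, adjusted p 0.0174). Ndufa10, a membrane arm subunit, stood at 142, 143 and 143 CPM in KO, against 119, 134 and 125 CPM in WT (0.18 ± 0.06, adjusted p 0.0376). Both lost the call when KO replicate 3 or WT replicate 3 was left out, and Ndufa10 also without KO replicates 1 or 2 or WT replicate 1, with log2 changes of 0.22 to 0.27 for Ndufa7 and 0.14 to 0.22 for Ndufa10 over the 6 such fits. The other lower members of complex I were Ndufs6 (-0.42), Ndufb7 (-0.32), Ndufa11 (-0.30), Ndufs4 (-0.29), Ndufb3 (-0.24), Ndufa3 (-0.23), Ndufa6 (-0.21), Ndufa9 (-0.20) and Ndufa13 (-0.17). Ndufs4 and Ndufs6 are late-joining accessory subunits of the N module, mutated in human complex I deficiency. Of these 9, Ndufs4 kept its call whichever library was left out, and the other 8 lost it in 2 to 5 of the 6 fits with every log2 change still below 0. Ndufa4, counted here by name, is now known as a complex IV subunit and stood at -0.06.

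Complex II, succinate dehydrogenase, also works in the TCA cycle. Sdha, its flavoprotein, stood at 317, 248 and 303 CPM in KO, against 256, 336 and 287 CPM in WT. Sdhb, its iron-sulfur subunit, stood at 172, 176 and 167 CPM in KO, against 177, 191 and 169 CPM in WT. Both overlapped, as did the membrane anchor Sdhd (153, 155 and 152 CPM in KO, against 145, 155 and 151 CPM in WT).

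The other anchor, Sdhc, was set by a single library. It stood at 24.3, 27.6 and 23.0 CPM in KO, against 42.7, 6.46 and 30.7 CPM in WT, so WT replicate 2 lay far under every other library. With all libraries its log2 change was -0.09 ± 0.54, and without WT replicate 2 it was -0.56 with an adjusted p of 0.0133. Cox6b1 of complex IV behaved alike, at 97.4, 91.4 and 92.5 CPM in KO, against 122, 52.96 and 118 CPM in WT, with a log2 change of -0.06 (adjusted p 0.882) that became -0.36 (adjusted p 0.00147) without WT replicate 2. Atp5d, the delta subunit of the F1 part of complex V, stood at 73.4, 59.3 and 79.0 CPM in KO, against 111, 69.2 and 121 CPM in WT, and went to -0.72 (adjusted p 0.00132) without WT replicate 2, beside -0.51 (adjusted p 0.0824) with it. WT replicate 2 had 106 of 8432 well-counted genes under 50% of both other WT libraries, where the other libraries had 1 to 9 such genes against their own group. Without it the counts of called members were again 10 higher and 34 lower, but the members changed. Sdhaf3, Ndufaf8, Cox7b and Ndufa13 lost their calls, and Sdhc, Cox6b1 and Atp5d were among those that gained one.

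**Figure D3:**
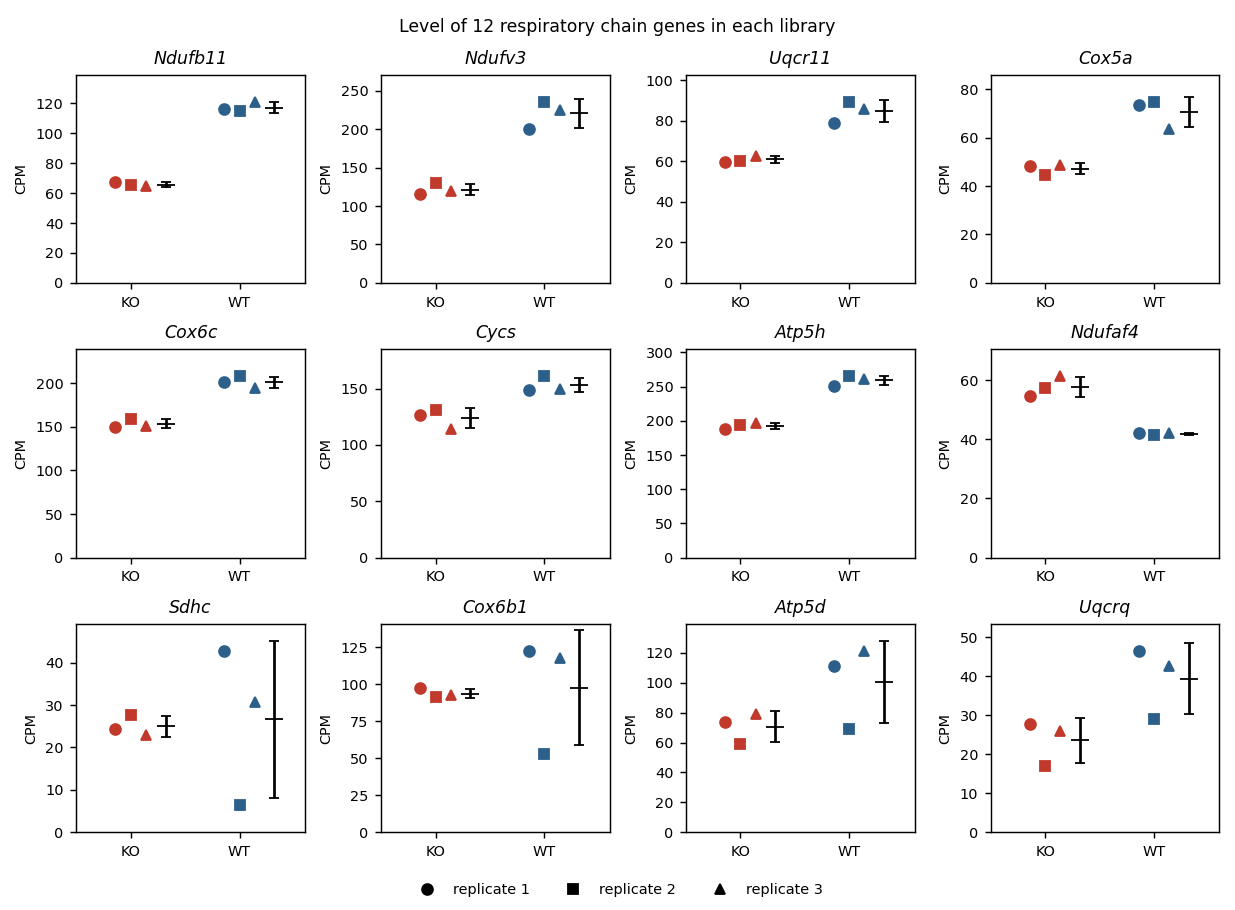
Level in CPM (y axis from 0) of 12 members in each library, KO in red left of WT in blue, symbols marking the replicate and black bars the mean ± SD of 3 libraries. Ndufb11, Ndufv3, Uqcr11, Cox5a, Cox6c, Cycs and Atp5h lie lower in KO without overlap and Ndufaf4 lies higher, while in Sdhc, Cox6b1 and Atp5d WT replicate 2 lies under the other WT libraries.

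Complex III hands electrons from ubiquinol to cytochrome c. Uqcr11, a small accessory subunit, stood at 59.8, 60.0 and 62.8 CPM in KO, against 78.8, 89.4 and 85.7 CPM in WT (log2 change -0.47 ± 0.07, adjusted p 0.00106). Uqcrq, a small subunit that binds near cytochrome b, stood at 27.8, 17.0 and 26.1 CPM in KO, against 46.4, 29.1 and 42.6 CPM in WT (-0.73 ± 0.23, adjusted p 0.0334). Its replicate 2 was the lowest library in each genotype, and WT replicate 2 lay only slightly above KO replicate 1. Uqcrc2, a core protein of the matrix side, stood at 240.5, 227 and 228 CPM in KO, against 267, 262 and 253 CPM in WT (-0.17 ± 0.05, adjusted p 0.0309). Uqcrh, the hinge protein next to cytochrome c1, stood at 229, 236 and 220.2 CPM in KO, against 249, 255 and 262 CPM in WT (-0.16 ± 0.05, adjusted p 0.0354).

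Uqcr11 kept its call whichever library was left out. Uqcrq lost it without KO replicate 2 (-0.54, adjusted p 0.0898), and also without KO replicate 3, WT replicate 1 or WT replicate 3, over a range of -0.92 to -0.54. Uqcrc2 (-0.19 to -0.15) and Uqcrh (-0.19 to -0.13) lost theirs without KO replicate 1, KO replicate 3 or WT replicate 3, and Uqcrc2 also without KO replicate 2 or WT replicate 1. Uqcrfs1, the Rieske iron-sulfur protein that takes the first electron, stood at 182, 189 and 182 CPM in KO, against 195, 199.6 and 196 CPM in WT (-0.09 ± 0.05, adjusted p 0.149). The remaining Uqcr10, Uqcrb and Uqcrc1 lay between -0.04 and 0.09 and overlapped.

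Cytochrome c (Cycs, chromosome 6, 50562563 to 50566538, minus strand), which also triggers the apoptosome when released, stood at 126, 131 and 114 CPM in KO, against 149, 161 and 149.7 CPM in WT. KO averaged 80.9% of WT (log2 change -0.31 ± 0.07, adjusted p 0.00873). The call was kept whichever library was left out and was lost in the fit of KO replicate 2 alone against WT (-0.22, adjusted p 0.132), with the Y-linked covariate (-0.20, adjusted p 0.193) and with spike-in scaling (-0.17, adjusted p 0.621).

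Complex IV, cytochrome c oxidase, surrounds its mitochondrially encoded core with nuclear subunits. Cox5a, which joins Cox4 early in assembly, stood at 48.2, 44.6 and 48.7 CPM in KO, against 73.6, 74.8 and 63.4 CPM in WT (log2 change -0.58 ± 0.08, adjusted p 0.00111). Cox6c, a small membrane subunit, stood at 150.2, 159 and 151 CPM in KO, against 201, 208 and 195 CPM in WT (-0.39 ± 0.05, adjusted p 0.00092). Cox6a1 stood at 139, 136 and 155 CPM in KO, against 172, 176 and 181 CPM in WT (-0.30 ± 0.06, adjusted p 0.00699). None of these 3 overlapped and each kept its call whichever library was left out.

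Cox4i1, the large regulatory subunit that binds early in assembly, stood at 253, 241 and 257 CPM in KO, against 280.1, 292 and 284 CPM in WT (-0.19 ± 0.05, adjusted p 0.0176). Cox7b stood at 177, 193 and 179 CPM in KO, against 197, 212 and 208 CPM in WT (-0.17 ± 0.06, adjusted p 0.048). Both differences were small but without overlap. Cox4i1 lost its call without KO replicate 1 or WT replicate 3 (-0.21 to -0.16 over the 6 fits), and Cox7b without either of these, KO replicate 3 or WT replicate 2 (-0.21 to -0.14). Cox5b, Cox7a2, Cox7a2l, Cox7c and Cox8a were not called, with log2 changes of -0.14 to 0.08.

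Several complex IV subunits have tissue-restricted paralogs, and the largest log2 changes of all members were in such genes at very low level. Cox6b2, known as the testis form of Cox6b, stood at 3.34, 3.37 and 3.78 CPM in KO, against 0.40, 0.52 and 0.47 CPM in WT (127 to 163 counts in KO and 14 to 21 in WT). Its log2 change was 2.91 ± 0.18 with an adjusted p of 3.8e-05. Cox7a1, the form of heart and skeletal muscle, stood at 1.01, 0.61 and 0.63 CPM in KO, against 2.15, 2.87 and 2.58 CPM in WT, a log2 change of -1.76 ± 0.24 with an adjusted p of 0.00109. Both calls held in all 17 alternative settings.

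Per kilobase of the deposited gene length, Cox6b2 was 3.79% ± 0.32 (SD, n = 3) of the Cox6b pair in KO and 0.59% ± 0.37 in WT, the WT share being highest in WT replicate 2 (1.02%), where Cox6b1 was low. Cox7a1 was 0.32% ± 0.11 of Cox7a1, Cox7a2 and Cox7a2l together in KO and 1.07% ± 0.12 in WT. The widely expressed forms therefore made up nearly all of each pair in both genotypes. The other restricted paralogs were at or near 0. Cox4i2, the lung and hypoxia form, had 2, 4 and 2 counts in KO, against 6, 3 and 7 in WT. Cox6a2 of muscle had 0, 0 and 0 counts in KO, against 4, 3 and 3 in WT. Cox7b2 had 0, 3 and 0 counts in KO, against 0, 0 and 0 in WT. Cox8b, Cox8c, Ndufa4l2 and Atp5o.1 had 0 counts in every library, which allows up to 0.0697 to 0.0835 CPM (3 counts, counting error only). These 7 genes are the members that were not tested, and Atp5o.1 carries the description of Atp5o and overlaps it on the same strand by 243 exon bases.

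**Figure D4:**
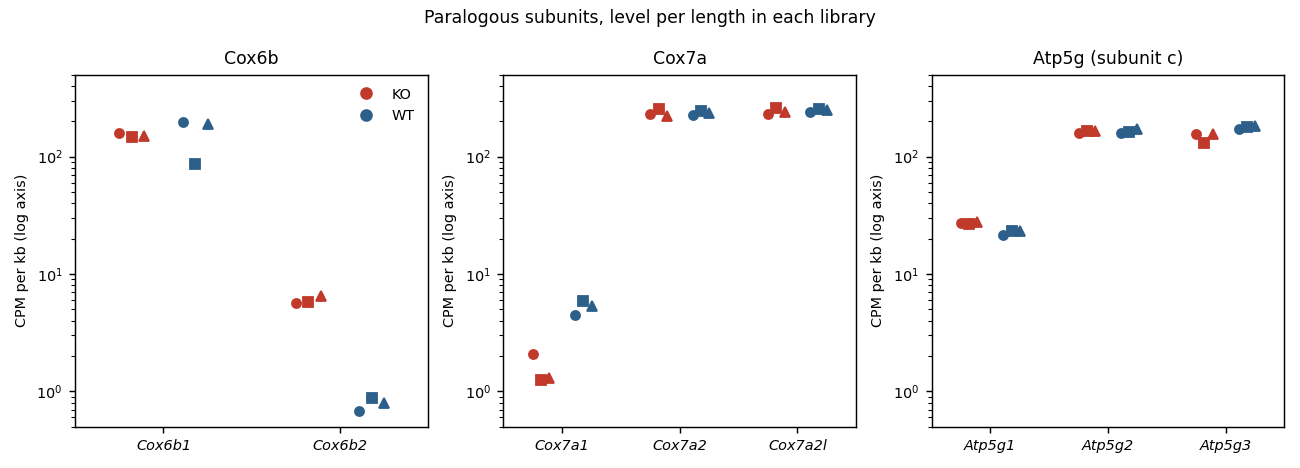
Level per kilobase of deposited length (CPM per kb, log axis, TMM scaling) of the Cox6b, Cox7a and Atp5g paralogs in each library, KO in red left of WT in blue. Cox6b2 lies higher in KO, at 5.97 CPM per kb on average beside 0.79 in WT, and Cox7a1 lower, at 1.54 beside 5.23, both far under their widely expressed paralogs.

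Complex V joins the catalytic F1 head to the proton channel Fo. Its catalytic subunits were the highest members per length, with Atp5b at 892 CPM per kb in KO and 939.5 in WT and Atp5a1 at 498 in KO and 499 in WT. Atp5b stood at 1721, 1664 and 1739 CPM in KO, against 1719, 1913 and 1768 CPM in WT (log2 change -0.08 ± 0.05, adjusted p 0.29). Atp5a1 stood at 1327, 1355 and 1312 CPM in KO, against 1298, 1390 and 1316 CPM in WT (-0.00 ± 0.05). Both overlapped. In F1, 1 of 5 subunits was lower, the small rotor subunit Atp5e (-0.29), and Atp5d (-0.51) did not pass the test.

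Further lower calls were in the peripheral stalk, which holds the head against rotation, and in the membrane part, and differences between these parts and F1 were not tested. Atp5h, a stalk subunit (chromosome 11, 115415689 to 115419962, minus strand), stood at 188, 194 and 197 CPM in KO, against 251, 265 and 261 CPM in WT (log2 change -0.43 ± 0.05, adjusted p 0.000457). Atp5o, which links the stalk to the head, stood at 81.7, 79.6 and 82.8 CPM in KO, against 91.0, 95.6 and 95.5 CPM in WT (-0.21 ± 0.05, adjusted p 0.0151). With Atp5j (-0.23), 3 of the 4 stalk genes were lower and Atp5f1 was not called (-0.09). In the membrane part, Atp5j2 (subunit f) stood at 145, 149 and 143 CPM in KO, against 167, 181 and 179 CPM in WT (-0.27 ± 0.05, adjusted p 0.00574). Atp5mpl, a small membrane subunit, stood at 63.9, 69.7 and 61.5 CPM in KO, against 77.7, 80.3 and 82.7 CPM in WT (-0.30 ± 0.07, adjusted p 0.00829). Atp5h, Atp5j2 and Atp5mpl kept their calls whichever library was left out. Atp5o lost it without KO replicate 1 or WT replicate 3 (-0.24 to -0.19), Atp5e without KO replicate 1 or 3 (-0.36 to -0.22), and Atp5j without KO replicate 2 or 3 or WT replicate 3 (-0.27 to -0.18). Atp5k and Atp5l, at -0.24 and -0.19, did not pass the test, and Atp5s, a coupling factor rather than a subunit, stood at 0.12.

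Atp5g1, Atp5g2 and Atp5g3 encode the same mature c subunit of the rotor ring behind different import sequences, and they moved apart. Atp5g1 stood at 127, 126 and 132 CPM in KO, against 102, 110.4 and 109.6 CPM in WT (log2 change 0.26 ± 0.05, adjusted p 0.00726). Atp5g3 stood at 135, 112 and 134 CPM in KO, against 147, 155 and 158 CPM in WT (-0.27 ± 0.08, adjusted p 0.0309), and lost its call without WT replicate 3 (-0.31 to -0.18 over the 6 fits). Atp5g2 stood at 118, 126 and 124 CPM in KO, against 119, 123 and 129.7 CPM in WT (-0.01 ± 0.06). By CPM, Atp5g1 made up 34.0% of the 3 genes in KO and 27.9% in WT. Per kilobase its share was 8.07% ± 0.19 in KO and 6.24% ± 0.13 in WT (SD, n = 3), with a deposited length of 4715 bases that is long for this gene and whose derivation is not stated.

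Assembly factors build the complexes without staying in them. Higher in KO were 3 factors of complex I and 3 of complex II. Ndufaf4 (chromosome 4, 24898083 to 24905001, plus strand), which helps build the part of complex I that holds the Q module, stood at 54.6, 57.3 and 61.2 CPM in KO, against 42.1, 41.3 and 41.96 CPM in WT. KO averaged 138% of WT (log2 change 0.47 ± 0.07, adjusted p 0.0011). Ndufaf6, which acts early in complex I assembly, stood at 13.5, 14.5 and 13.7 CPM in KO, against 10.5, 10.2 and 8.49 CPM in WT (0.52 ± 0.11, adjusted p 0.00786). Ndufaf7, a mitochondrial arginine methyltransferase, stood at 27.6, 28.7 and 28.5 CPM in KO, against 23.8, 24.7 and 23.9 CPM in WT (0.23 ± 0.07, adjusted p 0.0282). None of the 3 overlapped.

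All 4 complex II factors were called, a small set, beside 42.5% of all genes tested and 47.4% of protein-coding genes. Sdhaf4, which protects free Sdha, stood at 7.83, 8.06 and 7.57 CPM in KO, against 5.44, 5.50 and 5.37 CPM in WT (log2 change 0.52 ± 0.10, adjusted p 0.00536). Sdhaf3 (0.44) and Sdhaf1 (0.22), which help Sdhb receive its iron-sulfur clusters, were also higher. Sdhaf2, which attaches the flavin to Sdha, was lower at 52.7, 52.8 and 52.3 CPM in KO, against 65.1, 71.1 and 71.1 CPM in WT (-0.39 ± 0.06, adjusted p 0.00175). Ndufaf8, a partner of the Ndufs7-modifying Ndufaf5, was the other lower factor, at 11.4, 10.4 and 9.59 CPM in KO, against 12.6, 13.3 and 13.3 CPM in WT (-0.32 ± 0.10, adjusted p 0.0359).

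Ndufaf4, Ndufaf6, Sdhaf4 and Sdhaf2 kept their calls whichever library was left out. Ndufaf7 (0.21 to 0.25), Sdhaf1 (0.17 to 0.26), Sdhaf3 (0.34 to 0.53) and Ndufaf8 (-0.38 to -0.26) each lost the call without KO replicate 3 or WT replicate 3. Ndufaf7, Sdhaf1 and Sdhaf3 also lost it without KO replicate 1, Ndufaf7, Sdhaf3 and Ndufaf8 without KO replicate 2, Ndufaf7, Sdhaf1 and Ndufaf8 without WT replicate 1, and Sdhaf3 and Ndufaf8 without WT replicate 2. Sdhaf1 shares 1733 exon bases with E130208F15Rik on the opposite strand, which was higher in KO (log2 change 1.18). The library kit keeps strand, and whether counting used it is not stated, so these reads may not be told apart. Assembly factors were low per length, at 1.71 to 22.3 CPM per kb in KO and 1.26 to 23.4 in WT.

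Smaller overlaps touched other called members. Ndufb11 shares 117 exon bases with Rbm10 on the opposite strand (-0.40), Sdhaf2 94 bases with Cpsf7 (0.63), Cox6c 250 bases with Vps13b (0.18) and Atp5j 397 bases with Gabpa (0.02). Processed pseudogenes that carry members' names numbered 14 in the table, and 0 of them reached 1 CPM in either genotype (highest 0.25 CPM).

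The other genes of oxidative metabolism, listed with earlier results of these data known, are given beside the 42.5% of all genes called (21.7% higher and 20.9% lower). Of 37 tested assembly factors outside the naming rule, 5 were higher and 8 lower (13.5% and 21.6%, median -0.08), fewer in all than the share of all genes. Among the lower ones, Surf1 (-0.83 ± 0.07), Pet100 (-0.62 ± 0.09) and Sco1 (-0.60 ± 0.08) build complex IV and Uqcc2 (-0.48 ± 0.08) complex III, while Acad9 (0.48 ± 0.12), a complex I factor, was higher. Of 4 tested genes listed with subunits outside the rule, 1 was lower and 0 were higher. The count of 0 higher was the same at an unadjusted p under 0.05, by DESeq2 and by limma-voom. The lower one, Ndufb1-ps (-0.52 ± 0.08), is of complex I by name but is classed as a bidirectional promoter lncRNA, not as protein-coding. Mitochondrially encoded mRNAs gave 0 higher and 1 lower of 12 tested by edgeR (mt-Nd6, -0.80 ± 0.19; 1 higher and 2 lower at an unadjusted p under 0.05, 1 and 1 by DESeq2 and by limma-voom) with a median of 0.05, and WT replicate 2 lay lowest at -0.34 on their library median. The summed level of the tested structural subunits was 11811, 11868 and 11872 CPM in KO, against 12427, 13216 and 12862 CPM in WT, without overlap, and the ratio of mitochondrially encoded to nuclear summed CPM was 0.835, 0.833 and 0.866 in KO, against 0.863, 0.722 and 0.885 in WT, with overlap. That sum was mostly mt-Co1 (8056 ± 186 CPM in KO and 8820 ± 542 in WT), and how reads shared with nuclear copies of mitochondrial DNA were counted is not stated.

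Around the chain, the TCA cycle gave 1 higher and 5 lower of 14 tested (42.9% called, median -0.16), with Cs (-0.66 ± 0.15), citrate synthase, lower and Idh2 (0.47 ± 0.06) higher. Ubiquinone synthesis and other enzymes that feed it electrons gave 7 higher and 2 lower of 20 (45.0% called, median 0.06). Prodh (1.57 ± 0.17), Sqor (0.95 ± 0.14) and Etfdh (0.77 ± 0.07), which pass electrons from proline, sulfide and fatty acid oxidation to ubiquinone, were higher, and Coq2 (-0.66 ± 0.08) of ubiquinone synthesis was lower. Regulators of mitochondrial biogenesis gave 1 higher and 5 lower of 16 (37.5% called, median 0.01), the lower ones being Myc (-0.75 ± 0.07), the DNA helicase Twnk (-0.42 ± 0.07), the mitochondrial transcription factor Tfam (-0.27 ± 0.06), Nrf1 (-0.25 ± 0.08) and Yy1 (-0.16 ± 0.05). Carriers of ADP, ATP and phosphate, listed with the uncoupling protein Ucp2, gave 1 higher (Slc25a3, 0.45 ± 0.15) and 1 lower (Slc25a5, -0.42 ± 0.06) of 4 (median -0.16), and genes of supercomplexes and cristae 2 higher and 2 lower of 10 (40.0% called, median -0.07), Higd1a being lowest at -0.998 ± 0.09. The called shares given here lie near that of all genes.

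Promoters of the members were searched for the motifs of factors known to bind respiratory chain or housekeeping promoters. A promoter of 250 bases before to 50 after the start was in the RefSeq table (GRCm38.p6) for 81 members and 27025 genes in all. The motif of NRF1 (GCGCANGCG), a factor known for respiratory chain promoters, was found on either strand in 25 of the 81 (30.9%) and in 7.03% of all genes. The ETS motif CCGGAAG, read by GABP, was in 25.9% and 9.93%, and the YY1 motif AAGATGGCG in 9.88% and 1.64%. SP letters (GGGCGG) were in 49.4% and 38.2%, and the CCAAT box (CCAAT) in 44.4% and 41.1%. The 27025 genes were not limited to those tested here, and promoters matched in expression or base composition were not compared. No motif contains another whole, each was counted whether or not its matches overlapped those of another, and a match is not a shown binding site.

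Split by call, NRF1 matches were in 10 of 29 lower members, 3 of 9 higher members and 12 of 41 members not called. YY1 matches were in 7 of 29, 0 of 9 and 1 of 41. These are descriptions of few genes, with Wilson 95% intervals of 12.2% to 42.1% for YY1 in lower members and 0.43% to 12.6% in members not called. The 8 YY1 matches and the NRF1 matches of Cycs and Atp5h are shown so that their context can be compared, each as 30 bases on the gene's strand with the motif in capitals.
Ndufc1 chr3:51408914-51408943, minus strand, YY1: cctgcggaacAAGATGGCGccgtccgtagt
Atp5j2 chr5:145191499-145191528, minus strand, YY1: ccaggacttcAAGATGGCGtcactcggtga
Ndufa9 chr6:126849096-126849125, minus strand, YY1: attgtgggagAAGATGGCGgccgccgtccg
Ndufs7 chr10:80249463-80249492, plus strand, YY1: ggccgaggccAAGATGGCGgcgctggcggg
Ndufaf8 chr11:120098934-120098963, plus strand, YY1: ggcagggcccAAGATGGCGgcgccctcgag
Ndufs6 chr13:73328433-73328462, minus strand, YY1: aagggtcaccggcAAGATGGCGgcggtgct
Ndufs4 chr13:114388045-114388074, minus strand, YY1: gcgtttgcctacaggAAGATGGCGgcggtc
Atp5j chr16:84835045-84835074, minus strand, YY1: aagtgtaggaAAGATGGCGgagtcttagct
Cycs chr6:50566611-50566640, minus strand, NRF1: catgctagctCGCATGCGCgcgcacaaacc
Atp5h chr11:115420041-115420070, minus strand, NRF1: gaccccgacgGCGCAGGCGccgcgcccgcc
All 8 YY1 matches lie in the gene's own orientation, and 7 of them begin 11 to 36 bases past the start in the table, which gives 1 window for each of those 7 genes. Atp5j has 2 windows, and its match lies 88 bases before the more downstream of their starts, inside the gene as counted here. Ndufs7 is the match among members not called (-0.24, adjusted p 0.0556). The Cycs match is on the opposite strand to the gene.

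**Figure D5:**
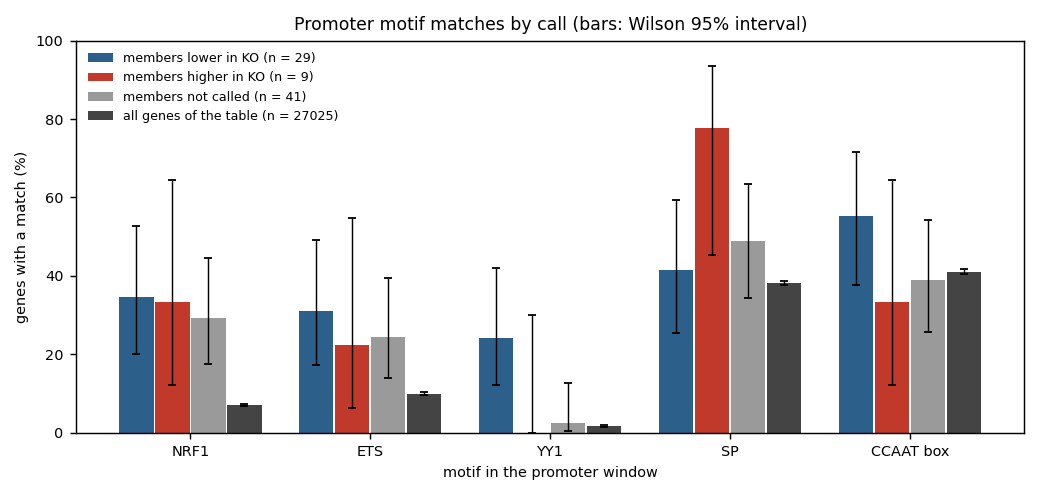
Share of genes with at least 1 match of each motif in the promoter window (y axis, percent, bars from 0 with Wilson 95% intervals), for members lower in KO (29), higher in KO (9), not called (41) and all 27025 genes of the promoter table. NRF1 matches are in 29.3% to 34.5% of members of each call and in 7.03% of all genes, and the YY1 intervals of lower members and members not called overlap slightly. All genes here include genes not tested for expression.

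In the authors' deposited table, all 92 members marked as above background have a fold change, with 11 higher and 33 lower at an adjusted p under 0.05 and a median log2 fold change of -0.10. Of these, 42 were also called here in the same direction.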

How the data were processed

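Total RNA of 6 cultures was sequenced after removal of ribosomal RNA, with stranded libraries, per the labels' protocols. The authors deposited raw counts per gene, normalized values (a signal equal to counts over a factor per sample) and group means. The authors' table also has a deposited length in bases per gene, a log2 ratio of KO over WT and its adjusted p-value. STAR, featureCounts, DESeq2, DESeq and GRCm38.p3 are named in the submitters' processing notes, without versions, and strand use in counting is not given in the sources used here.

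Only raw counts were fitted. After removal of spike-in RNAs (0.161% to 0.216% of counts), genes were kept by filterByExpr of edgeR 4.0.16 (minimum count 10, total 15) in R 4.3.3, scaled by TMM and tested over all 16006 genes by the quasi-likelihood test of genotype, with Benjamini-Hochberg adjustment and calls under 0.05. The SE is the coefficient over the square root of F. Counting intervals and floors cover counting error only. Positions are from GENCODE M21. The named genes were the 4 with the lowest p in each direction in each complex, catalytic subunits and paralogs. Others were chosen after their values were seen. A few results under this rule are not reported here. Members and lists, complex modules included, were chosen with earlier results of these data known. Alternatives were DESeq2 1.42.0, limma 3.58.1 voom, RLE, upper-quartile and spike-in scaling, other filters, gene removal, each library left out, KO replicate 2 alone, the replicate block and a Y-linked covariate.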

Additional observations from a re-analysis of the deposited data

How the results depend on the processing

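Over 17 alternatives and 92 members, 1334 of 1564 single-member values kept their side of the threshold, 208 lost a call and 22 gained one. No called value reversed, but values not called in either fit could change sign among the 1334. Cox6b1 did so, at -0.06 in the main fit and 0.07 with spike-in scaling. The count of higher members, 10 with all libraries, was 4 with spike-in scaling, 5 without a filter, 2 with KO replicate 2 alone set against WT, 3 with the Y-linked covariate, and 5 to 10 with a library left out (6 without KO replicate 1, 5 without KO replicate 3 and 5 without WT replicate 3). The count of lower members, 34, was 4, 12 and 18 with spike-in scaling, KO replicate 2 alone and the covariate, and 18 to 34 with a library left out (20, 22 and 18 without the same 3 libraries). The share of all genes called, 42.5% with all libraries, was 27.8% with spike-in scaling, 16.3% with KO replicate 2 alone, 21.6% with the covariate, and 31.7%, 34.1% and 32.2% without those libraries. DESeq2 gave 9 higher and 33 lower.

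Upper-quartile scaling gave medians of -0.098, 0.0090, -0.080, -0.092 and -0.16 for complexes I to V and 0.27 for assembly factors. Spike-in scaling gave -0.011, 0.10, 0.010, 0.00065, -0.074 and 0.36. KO replicate 2 alone gave 0.013 for complex II, -0.083 for III, -0.088 for IV and 0.19 for assembly factors, and the covariate 0.014, -0.078, -0.076 and 0.19. Over the fits without a library, medians ran from -0.17 to -0.12 (complex I), -0.062 to 0.013 (II), -0.13 to -0.10 (III), -0.16 to -0.092 (IV), -0.24 to -0.18 (V) and 0.19 to 0.25 (assembly factors). The cause of these shifts was not tested.

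With the replicate number as a block, 6 members were higher and 28 lower and the complex II median was 0.0042. Deviations of same-numbered libraries from their group means had correlations of -0.02, 0.01 and 0.08, where other pairs gave -0.06 to 0.05. With 3 libraries per genotype, these values cannot decide whether the numbers pair the libraries.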
